A study of Mus musculus with 2 samples.

Results

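The chaperones of the cytosol and of the mitochondrion were followed in pancreatic islet cells of mice. The set holds 32 genes, taken by symbol from the 32285 genes of the matrices: 12 heat-inducible members, 6 constitutive cytosolic members, the 8 subunits of the chaperonin TRiC, 4 mitochondrial members, and the regulator Hsf1 with Hypk. All 32 symbols were found. The mice, labelled DIO (a common name for diet-induced obesity), received saline in one group and 10 mg/kg CDS in the other for 2 weeks before their islets were isolated, and each group gave 1 droplet library of islet cells. The labels used here do not say what CDS is, how many animals each library holds or whether they were pooled. A difference between the libraries cannot be told apart from a difference between the animals, the dissociations or the captures. The series title names an alpha2A-adrenergic receptor antagonist without tying it to CDS, and the strain, sex and age are not given there.

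Chaperones bind proteins that are not folded and keep them from aggregating while they fold. The cytosolic machinery is built on Hsp70 and Hsp90, ATPases whose cycles are set by J-domain proteins such as Dnaja1 and Dnajb1, by exchange factors such as Bag3, Hsph1 and Hspa4, and by co-chaperones such as Stip1, which links Hsp70 to Hsp90. When unfolded protein accumulates, the transcription factor Hsf1 binds heat shock elements in the promoters of the inducible members. TRiC is a double ring that folds actin, tubulin and other cytosolic proteins, and the mitochondrion has its own set, with Hspa9 drawing proteins in and the Hspd1 chamber with its Hspe1 lid folding them. Beta cells make very large amounts of insulin, a load that falls mainly on the chaperones of the endoplasmic reticulum; the genes described here serve the other compartments.

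A heat shock element is built from GAA units in alternating orientation, and the promoters are shown because they separate the members in this respect. RefSeq (build GRCm38.p6) gave promoters for 24 of the 32 members. Their 250 bases before the start site were searched for 2 adjacent units, GAANNTTC or TTCNNGAA, each of which reads the same on both strands. Either pair was present in 12.9% of 27025 mouse promoters of the same length, in 8 of the 24 members and in 5 of the 10 heat-inducible members with an entry. The longer run of 3 units, GAANNTTCNNGAA on either strand, which overlaps with the pairs, was present in 0.40% of promoters and in 1 member, Hspe1. The promoters of Hspa1a and Hspa1b were identical at 247 of 250 positions. The 30 bases around each pair follow, 5′ to 3′ on the strand of the gene, with the paired units in capitals.
Hspa1a (chr17:34972242-34972271, minus): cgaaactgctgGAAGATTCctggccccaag
Hspa1b (chr17:34959324-34959353, minus): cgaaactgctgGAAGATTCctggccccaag
Hspb1, far pair (chr5:135887791-135887820, plus): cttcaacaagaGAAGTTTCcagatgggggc
Hspb1, near pair (chr5:135887811-135887840, plus): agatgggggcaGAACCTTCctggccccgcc
Dnaja1 (chr4:40722333-40722362, plus): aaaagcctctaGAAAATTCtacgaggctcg
Hsph1 (chr5:149636351-149636380, minus): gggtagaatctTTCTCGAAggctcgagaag
Hspe1 (chr1:55088053-55088082, plus): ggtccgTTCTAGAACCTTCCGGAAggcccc
Cct5 (chr15:31601862-31601891, minus): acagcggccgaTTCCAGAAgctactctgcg
Hypk (chr2:121456994-121457023, plus): ctttgctagctGAAGCTTCtcaagacaggc

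In Hspe1 the overlapping pairs filled bases 89 to 72 before the start, and in Hspa1a and Hspa1b the pair lay at bases 104 to 97. The Hspe1 run lies inside an annotated first exon of Hspd1, which is read from the other strand. The pairs of Dnaja1, Hsph1 and Hypk lie before the RefSeq start but inside the gene as GENCODE annotates it, with a start farther upstream. These are matches of letters in a window and say nothing of which of them is bound.

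The 150 bases before the start of 3 heat-inducible genes are shown for the place of the pairs, in capitals, relative to the start, which follows the last base.
Hspa1a (chr17:34972157-34972306, minus): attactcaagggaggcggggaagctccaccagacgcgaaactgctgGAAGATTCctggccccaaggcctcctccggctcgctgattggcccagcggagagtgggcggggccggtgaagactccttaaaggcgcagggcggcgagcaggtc
Hspa1b (chr17:34959239-34959388, minus): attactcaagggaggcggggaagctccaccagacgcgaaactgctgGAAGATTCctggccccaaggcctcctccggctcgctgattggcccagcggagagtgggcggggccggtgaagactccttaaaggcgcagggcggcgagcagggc
Hspb1 (chr5:135887769-135887918, plus): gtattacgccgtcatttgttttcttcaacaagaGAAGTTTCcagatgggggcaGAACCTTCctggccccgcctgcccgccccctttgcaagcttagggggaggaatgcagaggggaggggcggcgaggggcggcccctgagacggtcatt

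The matrices hold UMIs (unique molecular identifiers, 1 per captured RNA molecule), 124343325 over 12453 barcodes for saline and 141191447 over 7268 for CDS. After filters, 10977 and 6159 cells were kept, and 18 of the kept barcodes occurred in both libraries. Cells were assigned from their own RNA, since the labels call all of them islet b cells while glucagon, somatostatin and pancreatic polypeptide cells and non-islet cells were present. A cell was called beta-like where insulin RNA (Ins1 and Ins2) made up at least 15% of its UMIs, alpha-like at 2% Gcg, delta-like at 2% Sst and PP-like at 5% Ppy. Beta-like cells numbered 5013 and 3684 in the saline and CDS libraries, alpha-like cells 810 and 919, and delta-like cells 442 and 352. Endothelial-like cells numbered 315 and 239, and macrophage-like cells 138 and 138. B-like cells numbered 978 and 30, and T-like cells 821 and 17. The CDS library was deeper, with a median of 27582 UMIs in a beta-like cell against 15812, and its beta-like cells held less mitochondrially encoded RNA, 1.45% of UMIs against 2.61%.

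The first comparison was between the libraries within a class. Levels are UMIs summed over the cells of a class, in CPM (counts scaled to a fixed total) with TMM factors fitted within that class, and a ratio is CDS over saline with an exact 95% interval that covers counting error only. With 1 library per treatment there is no replicate check and no p. A member counts as lower where its ratio was 0.8 or less with the interval below 1, and as higher where the ratio was at least the inverse of 0.8 with the interval above 1; at least 50 UMIs over both libraries were required to count it as measured.

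In beta-like cells 16 of the 32 members were higher in the CDS library and 0 were lower, where 27.6% of 15482 measured genes were higher and 19% lower. By role, 7 of 12 heat-inducible members were higher, 1 of 6 constitutive cytosolic members, 6 of 8 TRiC subunits, 1 of 4 mitochondrial members, and Hypk. Beta-like cells of the libraries were shared unevenly over Leiden clusters: one led by Mafa and Slc2a2 held 2147 saline and 228 CDS cells, one with Mt2, Ero1l and Bnip3 among its leading genes 272 and 838, and one with Vip and Cox6a2 110 and 697. The class ratios therefore compare different mixtures of beta-like clusters, and the part of that mixture in them was not tested. The median log2 ratio was 0.36 for heat-inducible members and 0.31 for the other 20, beside 0.06 over all measured genes. Under plain scaling, without TMM factors, every beta-like log2 ratio moves by -0.40, so that 12 members lie above 0 and 20 below, and the medians become -0.04 and -0.09. Direction in beta-like cells is therefore given below relative to most genes, and 9 of the 16 kept a plain log2 ratio of 0.19 or more: Hspa1a, Hspa1b, Cryab, Hspb1, Dnaja1, Ahsa1, Cct2, Hspe1 and Hypk. Cct3, Cct6a and Cct7 came to 0.0057, 0.0013 and 0.013 under plain scaling.

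**Figure D1:**
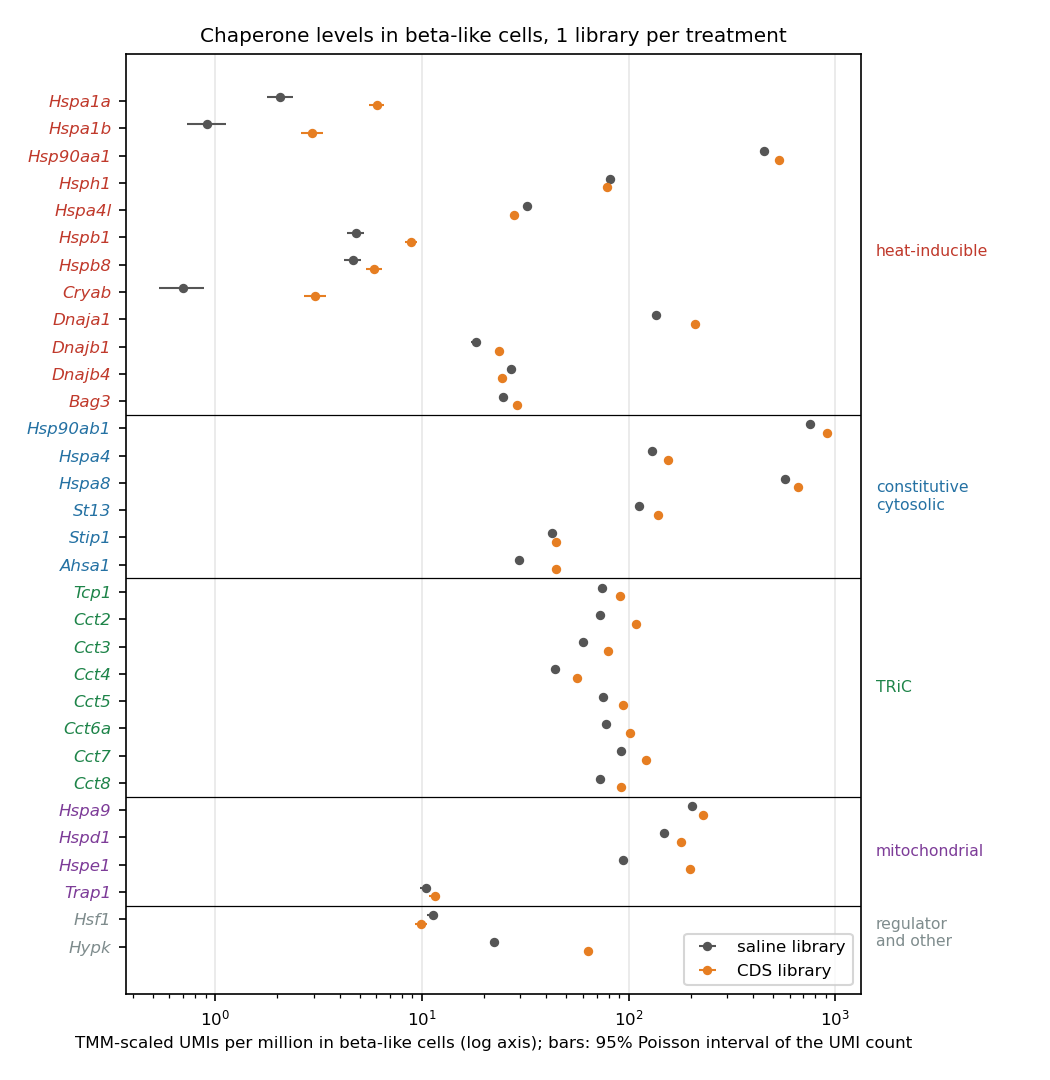
Level of each of the 32 members in beta-like cells (CPM after TMM scaling, log axis) in the saline library (grey) and the CDS library (orange), with bars for the 95% Poisson interval of the UMI count. The largest gaps are those of Cryab, Hspa1b, Hspa1a, Hypk and Hspe1, and 28 of the 32 orange points lie to the right of the grey ones.

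The inducible Hsp70 genes Hspa1a and Hspa1b, which lie side by side on chromosome 17, were low and higher with CDS. Hspa1a stood at 2.07 CPM in the saline library (193 UMIs) and 6.06 in the CDS library (539 UMIs), a ratio of 2.93 (95% interval 2.48 to 3.47). Hspa1b stood at 0.912 and 2.96 CPM, a ratio of 3.24 (2.53 to 4.19). The intervals of both genes overlap, and their last 500 transcribed bases share no 90-base stretch, so reads from these ends can be told apart. The UMIs sat in few cells: 23 of 3684 beta-like cells of the CDS library held 50% of the Hspa1a UMIs, and 1 cell held 65 of the 539. Without the richest cell of each library the Hspa1a ratio was 2.73 (2.30 to 3.26).

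The small heat shock proteins, ATP-independent holdases, were low in beta-like cells and higher with CDS. Hspb1 (Hsp25 in mice) stood at 4.79 and 8.86 CPM in the saline and CDS libraries, a ratio of 1.85 (1.64 to 2.08), with 50% of its CDS UMIs in 30 cells. Hspb8, the partner of Bag3 in selective autophagy, stood at 4.63 and 5.89 CPM, a ratio of 1.27 (1.12 to 1.45), and its log2 ratio under plain scaling was -0.05. Cryab, alpha-B-crystallin, went from 0.697 to 3.05 CPM, a ratio of 4.37 (3.32 to 5.82), but 1 CDS cell held 151 of 271 UMIs. Without the richest cell of each library the Cryab ratio was 2.03 (1.48 to 2.80). Hspb1 and Cryab are far more abundant in acinar-like, ductal-like and, for Hspb1, endothelial-like cells than in beta-like cells, and acinar markers were higher in the same beta-like sums, 8 of 8, with a summed plain level of 338 CPM in the CDS library against 246. Endothelial markers were lower in 7 of 8 (18.7 against 21.9), and ductal markers were higher in 4 and lower in 3 (551 against 465). The part of such RNA in these 2 genes was not tested.

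Among J-domain proteins and the large inducible chaperones the direction differed by gene. Dnaja1, a type I J-protein of the cytosol, went from 136 to 209 CPM, a ratio of 1.54 (1.502 to 1.57). Dnajb1, the main partner of inducible Hsp70 and of its disaggregase activity, went from 18.2 to 23.6 CPM, a ratio of 1.30 (1.22 to 1.38), which plain scaling turned to a log2 value of -0.02. Hsp90aa1, the inducible cytosolic Hsp90, stood at 454 and 532 CPM, a ratio of 1.17 (1.16 to 1.19) that did not reach the limit. Hsph1 (Hsp110), the exchange factor most often induced together with Hspa1a, stood at 81.7 and 78.7 CPM (ratio 0.964, 0.933 to 0.996). Hspa4l and Dnajb4 had ratios of 0.874 and 0.902 and Bag3 of 1.16, none past a limit. The heat-inducible members therefore did not move together: their log2 ratios ran from -0.20 to 2.13.

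Of the constitutive cytosolic members, Ahsa1 alone passed the limit in beta-like cells. Ahsa1, which activates the Hsp90 ATPase, stood at 29.4 and 44.5 CPM, a ratio of 1.52 (1.44 to 1.59). Hsp90ab1 stood at 754 and 911 CPM (ratio 1.21, 1.196 to 1.22), Hspa8, the constitutive Hsp70, at 572 and 658 (1.15, 1.14 to 1.16), and Stip1 at 42.7 and 44.5 (1.04, 0.997 to 1.09). Hspa4 and the Hsp70-interacting protein St13 had ratios of 1.195 and 1.23. All 5 had log2 ratios below 0 under plain scaling, from -0.34 for Stip1 to -0.10 for St13.

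TRiC subunits form 1 complex with fixed stoichiometry, and their ratios were close to each other, with log2 values from 0.30 to 0.59. Cct2 was the farthest, at 72.5 CPM with saline and 109 with CDS, a ratio of 1.504 (1.46 to 1.55). Cct3, Cct6a and Cct7 had ratios of 1.32, 1.32 and 1.33, Cct4 of 1.27 and Cct8 of 1.26. Cct5 at 1.24 and Tcp1 at 1.23 lay just under the limit. Plain scaling put Cct4, Cct8, Cct5 and Tcp1 below 0 on the log2 scale, at -0.06, -0.07, -0.09 and -0.10.

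In the mitochondrial set the lid and the chamber parted. Hspe1 (Hsp10) went from 93.4 CPM with saline to 199 with CDS, a ratio of 2.13 (2.08 to 2.19), while Hspd1 (Hsp60), which faces it across the shared promoter, stood at 148 and 179 (1.21, 1.19 to 1.24). Hspa9 (mortalin), the Hsp70 of the matrix, stood at 202 and 228 CPM (1.13, 1.11 to 1.15), and Trap1, the mitochondrial Hsp90, at 10.5 and 11.6 (1.11, 1.01 to 1.21). Part of the Hspe1 sequence is repeated elsewhere: 36.0% of the 90-base stretches in the last 500 bases of its transcripts occur in another annotated transcript, and 18.6% of those of Hspd1 do. The share was 60.6% for Hspa8, 35.5% for Dnaja1, 34.9% for Hspb1, 18.7% for Hsp90aa1, 16.8% for Ahsa1 and 2.28% for Cct6a. Apart from Hypk, described next, the other members shared none.

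Hsf1, the transcription factor itself, stood at 11.3 and 9.89 CPM in beta-like cells (ratio 0.874, 0.798 to 0.956), inside the limits. Hypk, a small chaperone-like subunit of the ribosome-bound N-terminal acetyltransferase, went from 22.3 to 63.8 CPM, a ratio of 2.86 (2.72 to 3.01). The annotated Hypk gene overlaps exons of Serf2 on the same strand, and 37.3% of the 90-base stretches at its transcript ends are also in Serf2 transcripts, so the 2 genes may not be fully separated in the counts.

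Gene length moved with these ratios. Over all measured genes in beta-like cells, those in the shortest of 5 length bands (median span 3.78 kb) had a median log2 ratio of 0.50 with 59.6% higher, and those in the longest (130 kb) had a median of -0.35 with 3.65% higher. From the shortest band to the longest, the bands held 8, 11, 7, 6 and 0 members, of which 7, 6, 2, 1 and 0 were higher. Genes of the members' lengths had a median of 0.23, and after the running median of a window of genes of like span was taken off, 21 of the 32 members lay above 0, with a median of 0.14. Cryab, Hspa1b, Hypk, Hspa1a, Hspe1 and Cct6a kept the largest differences after that step, at 1.73, 1.19, 1.12, 1.05, 0.59 and 0.57 on the log2 scale, Hspb1 kept 0.26, and Dnajb1 came to -0.09. The Cryab value includes the 1 cell with 151 UMIs, without which its unadjusted ratio was 2.03, so its lead rests on that cell. The part of length, depth and mitochondrial RNA in the library difference was not tested beyond this adjustment.

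**Figure D2:**
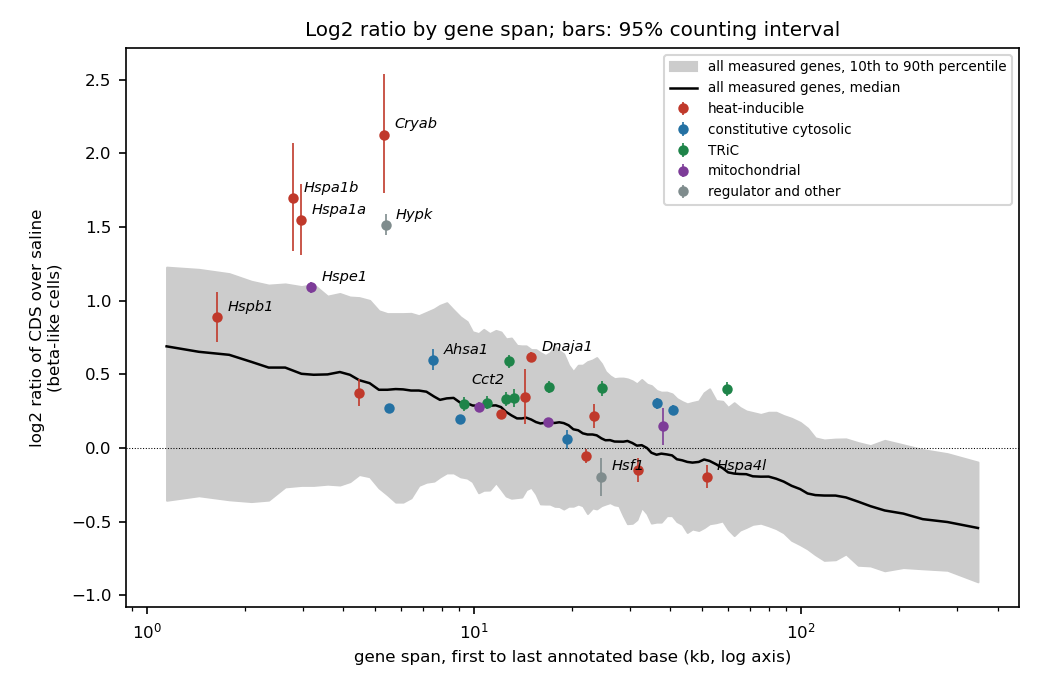
Log2 ratio of CDS over saline in beta-like cells (vertical axis) against gene span in kb (log axis) for the 32 members, coloured by role with 95% counting intervals, over the running median (black line) and the 10th to 90th percentile (grey band) of all measured genes. The running median falls with span, and Cryab, Hspa1a, Hspa1b and Hypk lie well above the band while most members lie within it.

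Other genes of the pathway were taken from a list of 60 further chaperones and co-chaperones. In beta-like cells 34 of the 60 were higher and 1 lower, beside 27.6% and 19% of all genes, with a median log2 ratio of 0.39. Plain scaling moves each of these ratios by -0.40 too, and after the length adjustment the median was 0.18, with 50 of 60 above 0. Among those at 20 CPM or more, the highest were Dnajc19 of the mitochondrial import motor (41.8 and 101 CPM, ratio 2.40), Hsbp1, which binds Hsf1 (51.5 and 119, ratio 2.32), and Btf3 of the nascent polypeptide-associated complex (110 and 241, ratio 2.19). The lowest were Fkbp5, an Hsp90 co-chaperone induced by glucocorticoids (ratio 0.851), Hspa12a (0.862) and the mitochondrial disaggregase Clpb (0.926), none past the limit. The lower one was Hspa12b, named after its value was seen, with 93 and 55 UMIs (ratio 0.620). Of 13 immediate early genes, which are known to respond to tissue dissociation, 8 were higher and 1, Fosb, was lower in beta-like cells, with a median log2 ratio of 0.44 beside 0.50 for genes of like length. Their part in the members' ratios was not tested.

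In alpha-like cells 7 of 31 measured members were higher and 1 was lower, where 19% of genes were higher and 11.9% lower. Hypk (17.1 and 36.2 CPM in the saline and CDS libraries, ratio 2.12, 1.72 to 2.63) and Hspe1 (134 and 207, ratio 1.54, 1.43 to 1.67) led among the well-counted members. Dnaja1, Ahsa1 and Cct2 had ratios of 1.31, 1.34 and 1.26. After the length adjustment Hypk kept 0.71 on the log2 scale, Dnaja1 0.22, Cct2 and Hspe1 0.14 and Ahsa1 0.11. The adjusted median of the measured members in alpha-like cells was -0.08, with 11 above 0. Hspa1a was counted with 12 and 42 UMIs (ratio 2.36, 1.22 to 4.93), of which 6 and 14 came from 1 cell in each library. Without these cells it fell under the minimum of 50 UMIs. The Cryab ratio of 17.7 came from 1 cell, which held 198 of its 210 CDS UMIs, and the lower value of Hspb1 (0.717) became 0.975 (0.625 to 1.54) without the richest cell of each library.

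In delta-like cells 4 of 29 measured members were higher and 1 was lower, where 16.8% of genes were higher and 12.3% lower. Hypk (27.9 and 67.4 CPM, ratio 2.41, 1.97 to 2.98), Hspe1 (201 and 342, ratio 1.70, 1.57 to 1.84) and Cct2 (107 and 161, ratio 1.505, 1.34 to 1.69) were higher. After the length adjustment Hypk, Hspe1 and Cct2 kept 0.95, 0.35 and 0.42 on the log2 scale. The adjusted median of the measured members in delta-like cells was -0.04, with 13 above 0. Hspa1a had 26 and 54 UMIs, of which 14 and 33 came from 1 cell in each library. Hspa4l, an Hsp110 relative, was lower at 73.9 and 58.3 CPM (ratio 0.789, 0.672 to 0.926).

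In endothelial-like cells 6 of 29 measured members were higher and 2 lower, where 19.4% of genes were higher and 12.6% lower. Hypk (37.4 and 72.1 CPM, ratio 1.93), Hspb1 (363 and 525, ratio 1.45, 1.31 to 1.59), Hspe1 (122 and 168, ratio 1.38), Cct2 (1.34), Dnajb1 (1.32) and Cct6a (1.26) were higher. In the saline library 1 cell held 172 of the 728 Hspb1 UMIs. Without the richest cell of each library the Hspb1 ratio was 1.815 (1.63 to 2.02). After the length adjustment, with all cells, Hspb1 kept 0.06 on the log2 scale and Dnajb1 0.01. The adjusted median of the measured members in endothelial-like cells was -0.12, with 12 above 0. Hsph1 (128 and 97.03 CPM, ratio 0.760, 0.624 to 0.923) and Stip1 (105 and 82.9, ratio 0.788) were lower.

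Macrophage-like cells had more members lower than higher, 8 against 4 of 24 measured, where 12% of genes were lower and 16.7% higher. Stip1 had the lowest ratio, at 100 and 55.1 CPM (0.550, 0.397 to 0.759). Hsph1 stood at 76.8 and 46.6 CPM (0.606, 0.422 to 0.870). Hsp90ab1 stood at 1570 and 1107 CPM (0.705, 0.655 to 0.760), with 1411 and 1427 UMIs behind it. Hspa9 (0.703), Dnaja1 (0.723), Cct3 (0.724), Tcp1 (0.770) and Hspd1 (0.779) were also lower, while Hypk (1.84), Ahsa1 (1.46), Cct4 (1.43) and Cct2 (1.32) were higher. In the saline library 1 cell held 135 of the 1411 Hsp90ab1 UMIs. Without the richest cell of each library the Hsp90ab1 ratio was 0.756. The Tcp1 call was then lost (0.7935, 0.614 to 1.027), and the other lower members stayed past the limit. The median log2 ratio of the measured members was -0.23, beside 0.05 over all genes and 0.17 over genes of like length, and the immediate early genes there were higher in 10 of 13. Markers of other cell types moved in the same macrophage-like sums: the plain level of acinar markers was 307 CPM with saline and 696 with CDS (7 of 8 higher, Amy2a5 at 0), of ductal markers 83.9 and 207 (4 of 7 higher, 1 lower, Cftr and Muc1 at 0), of plasma cell markers 224 and 129 (5 of 5 lower), and of erythroid markers 39.0 and 1.46 (2 of 3 lower, Alas2 at 0). Their part in the members' ratios was not tested. The class holds 138 cells in each library, with a median of 5220 UMIs a cell with saline and 9572 with CDS.

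Hypk and Cct2 were thus higher in 5 of 5 classes, each class with its own cells but all from the same 2 libraries. Hspe1 was higher in 4 and at a ratio inside the limits in macrophage-like cells (log2 0.24). The share of all genes higher in 5 or in 4 classes is not given here, so these counts do not set the members apart. In the shortest of 5 length bands 43.5% to 59.6% of genes were higher, by class. With length adjusted for, Hypk kept log2 values from 0.54 to 1.12 over the classes and Cct2 from 0.14 to 0.42. Hspe1 then ran from -0.24 in macrophage-like to 0.59 in beta-like cells.

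**Figure D3:**
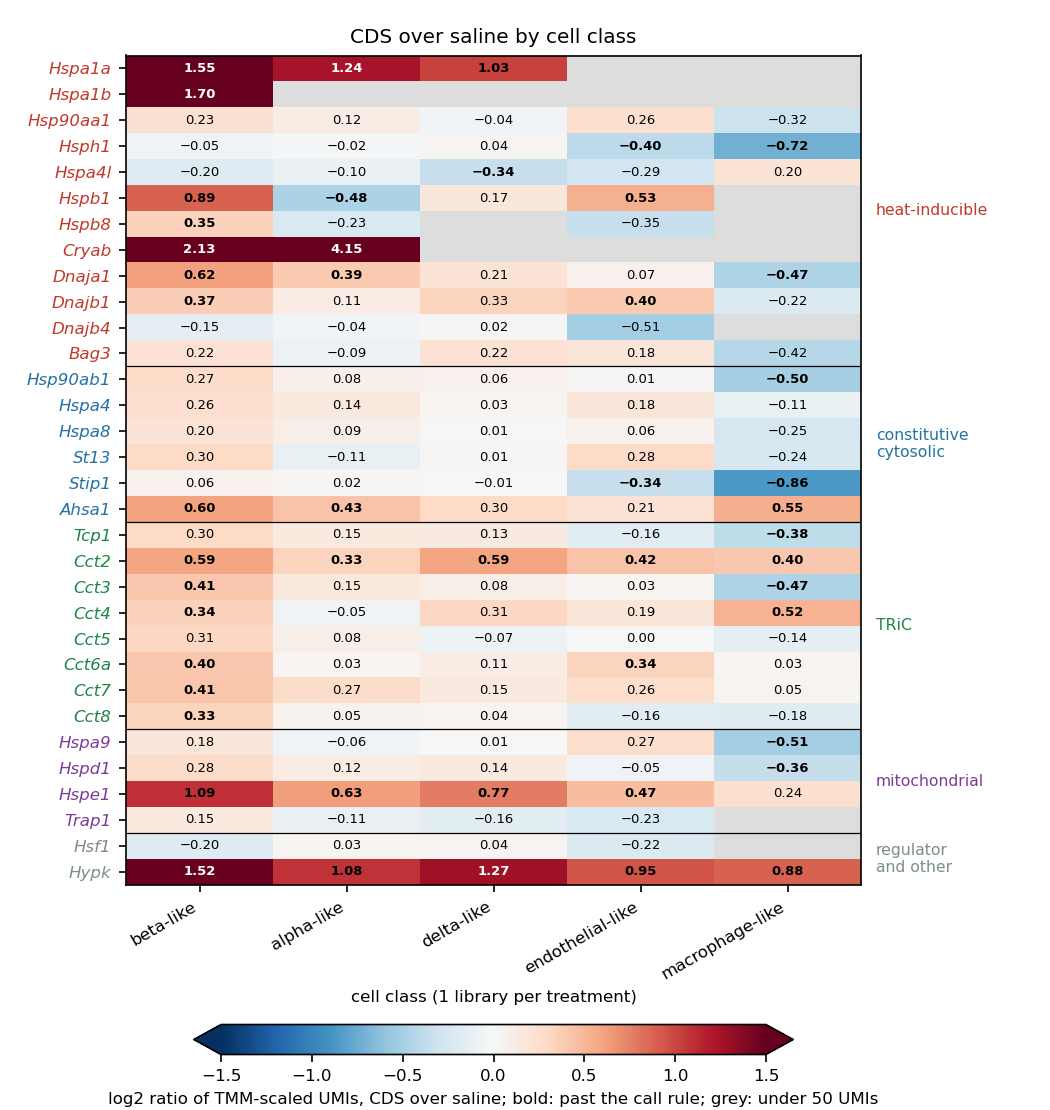
Log2 ratio of CDS over saline for each member (rows, grouped by role) in 5 cell classes (columns), coloured from blue (lower) to red (higher), with calls in bold and members under 50 UMIs in grey. Hypk and Cct2 are red in all 5 columns, and the macrophage-like column holds 8 of the 12 lower calls.

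The second comparison was between classes, with the 2 libraries as replicates. UMIs of 9 classes in each library were fitted together with edgeR's quasi-likelihood test, with library as a term and beta-like cells as reference (18 sums, 13917 genes), and levels in the next paragraphs use factors shared by all classes, so they differ in scale from those above. Each library is 1 replicate, since the cells of a class share it. With library as a term, the p-values rest on how unequally classes differ from each other in the 2 libraries. These libraries also differ in treatment, and the 8 residual degrees of freedom are shared by all classes. Of 104 member calls at a Benjamini-Hochberg adjusted p under 0.05, 67 held in every alternative run.

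The endocrine classes come first, with each count out of 32 tested members and set beside the share of all genes. In alpha-like cells 1 was higher and 9 lower, where 21% of genes were higher and 22.9% lower. In delta-like cells 3 were higher and 3 lower, beside 15.2% and 17.9% of genes, and in PP-like cells 3 and 5, beside 9.9% and 14.4%. No TRiC subunit was called in these classes, where the largest of their log2 differences was -0.21.

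Hspa9 separated beta-like cells from the other endocrine cells. It stood at 273 CPM in beta-like cells of the saline library and 274 in those of the CDS library, against 120 and 108 in alpha-like, 126 and 120 in delta-like and 116 and 113 in PP-like cells. The log2 differences were -1.26, -1.15 and -1.26 (edgeR adjusted p = 9.3e-05, 0.00037 and 0.00032). It was also lower in macrophage-like and B-like cells, at -1.40 and -1.38, and endothelial-like cells were at 0.50, not past the test. The groups did not overlap in any of these 5 called comparisons. Each group holds only its saline and its CDS sum, and the comparisons were chosen by their calls. The lack of overlap therefore adds little to the calls, and its share over all genes is not given here.

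Hypk was also highest in beta-like among the endocrine classes, with 30.2 and 76.6 CPM against 14.9 and 29.9 in alpha-like cells, a log2 difference of -1.21 (edgeR adjusted p = 2.3e-08). PP-like cells held 19.6 and 42.4 CPM (-0.75). In delta-like cells the call at 24.7 and 56.4 CPM (-0.36) was lost in 5 of 7 alternatives. The beta-like saline level lies below several CDS levels, so the order holds within a library.

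Among heat-inducible members, alpha-like cells were lower in Hspa1a (12 and 42 UMIs, log2 difference -1.06), Bag3 (-0.69), Hsph1 (-0.68), Hsp90aa1 (-0.56) and Dnajb1 (-0.51). With DESeq2 the calls of Hspa1a, Bag3 and Hsp90aa1 in alpha-like cells were lost (adjusted p = 0.104, 0.11 and 0.064), and that of Hspa1a also with the stricter gate (edgeR adjusted p = 0.084). The Cryab call in alpha-like cells rests on the 1 cell named above. Delta-like cells held more Bag3, 56.9 and 62.7 CPM against 33.4 and 34.5 in beta-like cells (0.82, edgeR adjusted p = 0.00014), more Hspb1 (26.0 and 27.6 against 6.49 and 10.6, 1.65) and more Hspa4l (0.56), and less Hspb8 (-0.89, from 16 and 24 UMIs). PP-like cells stood apart in Hspb8, with 26.1 and 25.6 CPM against 6.27 and 7.08, a log2 difference of 1.95 (edgeR adjusted p = 1.8e-06), from 61 and 46 UMIs.

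Endothelial-like cells had 14 members higher and 4 lower than beta-like cells, where 30.4% of genes were higher and 35.6% lower. Hspb1 stood at 287 and 408 CPM in the saline and CDS libraries against 6.49 and 10.6, a log2 difference of 5.34 (edgeR adjusted p = 5.3e-12). Bag3 stood at 89.2 and 99.03 against 33.4 and 34.5 (1.47), and Hspb8 and Dnajb1 were higher by 1.30 and 1.07. Of the TRiC subunits 7 of 8 were higher, led by Cct4 at 160 and 179 CPM against 59.8 and 67.2 (1.42). The mitochondrial chaperonin went the other way, with Hspd1 at -0.75 and Hspe1 at -0.64; both calls were lost with Leiden clusters as classes (edgeR adjusted p = 0.084 and 0.19). Dnajb4 was lower (-1.67), and Cryab was called higher although its libraries disagreed, at 3.33 and -0.12.

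In macrophage-like cells 3 members were higher and 7 lower, beside 26.3% and 31.9% of genes, with Cct4 (0.71), Ahsa1 (0.51) and Cct2 (0.43) higher. The macrophage-like call of Cct4 held in 7 of 7 alternatives, and those of Ahsa1 and Cct2 in 5 of 7 (highest adjusted p 0.17 and 0.282). In B-like cells 9 were higher and 9 lower, beside 25.1% and 35.9% of genes; the CDS library held only 30 such cells. B-like cells were low in the heat-inducible set, with 7 of 12 lower, among them Bag3 (17 and 1 UMIs, log2 -2.65) and Hspa4l (26 and 1 UMIs, -2.32), and Hspb8 had 0 UMIs in both libraries. They were higher in 5 of 8 TRiC subunits and in Hspe1 (1.18) and Trap1 (1.22).

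Acinar-like and ductal-like cells held many more small heat shock protein UMIs than beta-like cells. Acinar-like cells had 13 members higher and 0 lower, where 9.31% of genes were higher and 16.5% lower, and ductal-like cells 20 and 1, beside 20.6% and 28.1%. Hspb1 stood at 1933 and 1009 CPM in acinar-like cells and 329 and 378 in ductal-like cells. Cryab stood at 211 and 693 CPM in acinar-like cells and 162 and 283 in ductal-like cells, against 0.943 and 3.66 in beta-like cells, log2 differences of 7.63 and 6.75 (edgeR adjusted p = 1.1e-09 and 3.1e-10). In ductal-like cells 8 of 8 TRiC subunits were higher, from 0.69 for Cct7 to 1.62 for Cct4, together with Hspd1 (1.01), Hspe1 (1.19), Trap1 (1.17), Hsp90ab1 (1.40) and Hspa4 (0.91). These classes are small, with 56 and 34 acinar-like and 41 and 36 ductal-like cells.

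**Figure D4:**
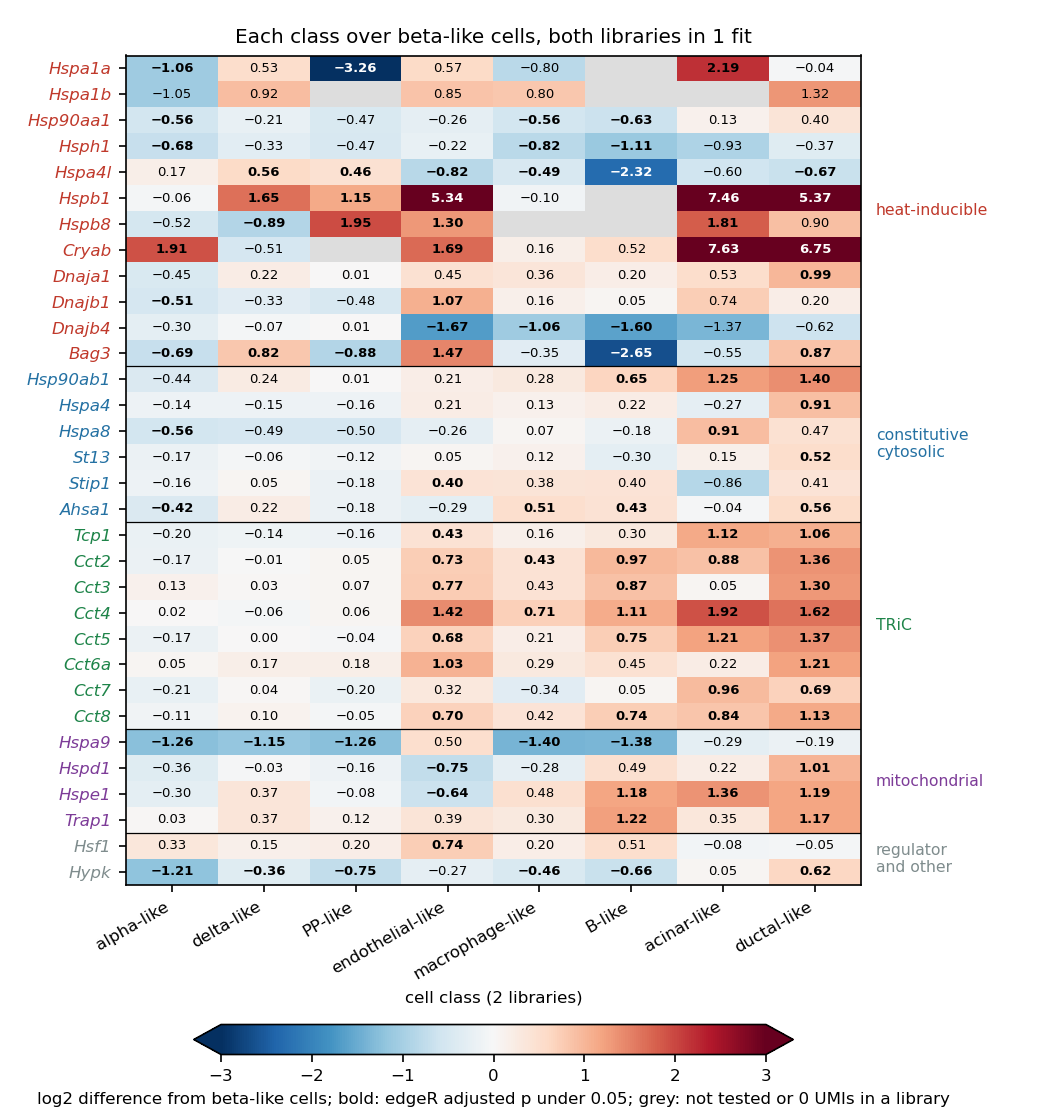
Log2 difference of each class (columns) from beta-like cells for each member (rows, grouped by role), from 1 edgeR fit of both libraries, with adjusted p under 0.05 in bold and members with 0 UMIs in a library in grey. Hspb1 is deep red in endothelial-like, acinar-like and ductal-like cells, Hspa9 is blue in alpha-like, delta-like, PP-like, macrophage-like and B-like cells, and the TRiC rows are pale in the endocrine columns.

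Within beta-like cells the members were spread in different ways. Cells were thinned to 5000 UMIs each, which left 4804 of 5013 saline and 3397 of 3684 CDS cells. An Hspa1a UMI was then seen in 0.916% of saline cells (exact 95% interval 0.666 to 1.23) and 1.97% of CDS cells (1.53 to 2.50); unthinned shares were 2.25% and 5.37%, at median depths of 15812 and 27582 UMIs. For comparison, 1 of 160 PP-like cells of the saline library and 0 of 85 of the CDS library had one at the same depth, which for the CDS library allows up to 4.25% (upper limit of the exact interval), so the PP-like cells are too few to set a background. None of the classes is known to lack the gene, and B-like cells held 2 Hspa1a UMIs in 978 saline cells and 0 in 30 CDS cells at lower depth. The variance of Hspa1a UMIs over their mean was 3.04 and 3.20, where counting alone gives 1. Hsp90ab1 was seen in 97.4% and 96.8% of cells with a ratio of 1.484 and 1.502, and the TRiC subunits had ratios between 0.997 and 1.10.

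Beta-like cells with an Hspa1a or Hspa1b UMI held more of some heat-inducible, constitutive cytosolic and mitochondrial members. There were 58 such saline cells and 91 such CDS cells at 5000 UMIs. Dnajb1 was 4.11 times as high in them as in the other beta-like cells of the saline library (95% counting interval 2.61 to 6.19) and 4.96 times in the CDS library (3.52 to 6.84). Hsph1 was 3.24 times (2.57 to 4.03) and 4.04 times (3.32 to 4.88) as high.

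Hspe1 was 1.73 and 2.32 times as high in these cells, Dnaja1 1.60 and 1.68 times, and Hsp90ab1 1.40 and 1.54 times, with counting intervals above 1. The intervals were also above 1 in both libraries for Hsp90aa1 (1.26 and 1.56 times) and Hspa8 (1.17 and 1.33 times). For Hspa4 (1.40 and 1.09 times) this held in the saline library only, and for St13 (1.14 and 1.39 times) in the CDS library only. Hspb1 was 7.07 times as high (4.26 to 11.2) in the CDS library and had under 20 UMIs in the saline cells of this kind. For Cct2, Cct5, Cct6a, Cct7, Cct8 and Tcp1 the intervals included 1 in both libraries, at 0.858 to 1.43 times in the saline and 0.881 to 1.33 times in the CDS library. Some of these values are as large as those of Hspd1 (1.37 and 1.33) and Hspa9 (1.16 and 1.36), and no difference between the roles was tested. Jun was higher by 1.84 and 2.75 times, while Fos (0.517 and 0.553) and Egr1 (0.505 and 0.554) were lower. The acinar RNA Ctrb1, at 0.886 and 1.06 times, had intervals that included 1. The cells did not stand apart in mitochondrial RNA in the saline library (median 2.47% against 2.55%), and in the CDS library they were shallower before thinning, with a median of 19603 UMIs against 28780 and 1.57% mitochondrial RNA against 1.41%. Cells of 1 library are not replicates, so no test was made.

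**Figure D5:**
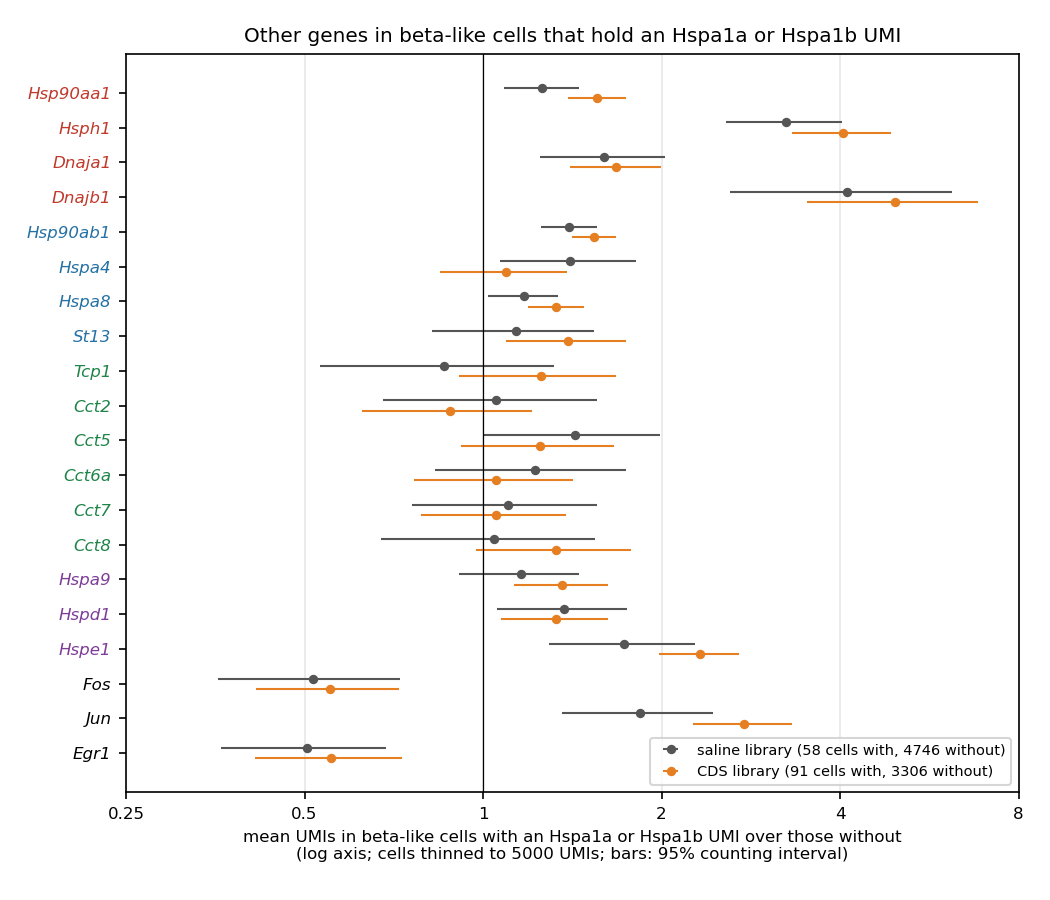
Mean UMIs in beta-like cells with an Hspa1a or Hspa1b UMI over the mean in beta-like cells without one (log axis), in the saline library (grey) and the CDS library (orange), for members and 3 immediate early genes (Fos, Jun and Egr1) with at least 20 UMIs in each set of cells in both libraries; bars are 95% counting intervals. Dnajb1 and Hsph1 lie farthest to the right in both libraries, and Fos and Egr1 lie to the left of 1.

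Summed over the 12 heat-inducible members, a beta-like cell of the saline library held a median of 4 UMIs of 5000 and one of the CDS library also 4, with 99th percentiles of 13 and 14 and highest cells of 30 and 38. The variance over mean of this sum was 1.56 in the saline and 1.957 in the CDS library, against 2.09 and 2.13 for the other 20 members. The means of the sums were unlike, at 4.53 and 4.24 UMIs against 15.4 and 15.2. Variance over mean depends on the mean, so these values do not rank the 2 sets by spread. Single cells of other classes reached higher sums, up to 52 in the saline and 105 in the CDS library in delta-like cells, 17 and 70 in alpha-like cells, 23 and 45 in endothelial-like cells and 64 and 37 in acinar-like cells. At 3000 UMIs, which keeps shallower cells, 1 saline endothelial-like cell held 132. Over single beta-like cells, correlations between members were weak, with a highest Pearson's r of 0.22 in each library (4804 and 3397 cells that share depth and library), between Hsp90aa1 and Hsp90ab1 for saline and between Hsp90ab1 and Hspa8 for CDS.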

How the data were processed

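The deposited matrices hold unnormalized UMI counts (whole numbers per gene and barcode), as the authors' files give them. Cell Ranger 7.1, Seurat 4, edgeR and genome build mm10 are named in the submitters' processing notes; the labels' protocols name 2 kit versions that differ, so which chemistry was used is uncertain. Barcodes with at least 500 genes, 1000 UMIs and at most 20% mitochondrial UMIs were kept, and doublets called by Scrublet (614 saline, 256 CDS) were removed. Non-hormone classes needed markers: 4 endothelial or macrophage, 3 B-cell or T-cell, 5 ductal, or 5% of UMIs from acinar enzymes. Gate thresholds were set after the marker distributions were seen; 2025 saline and 482 CDS cells stayed unassigned, and 91 and 118 passed several hormone gates. Cells near a gate (0.8 to 1.25 times it) numbered 175 and 155 for insulin. Members, gene lists and tests were chosen with earlier results of these data known.

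Sums were scaled with edgeR 4.0.16 (R 4.3.3) TMM factors, alternatives used DESeq2 1.42.0, and clusters Scanpy 1.11.5. Both the ratio intervals and the class fit were tested on simulated data. In the simulation of the class fit all genes had the same spread, and classes differed only in some genes of alpha-like cells. That simulation does not show how the fit behaves where class differences vary with library. The named genes were all 32 members, with full values for the 3 per role with the largest ratio in beta-like cells and the largest differences between classes. Positions are from GENCODE M21 and RefSeq on GRCm38. Promoters of 8 members were not used here.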

Additional observations from a re-analysis of the deposited data

Results flagged for a closer look

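Members past the limits in opposite directions in different classes were Hspb1, Dnaja1 and Cct3; with 1 library per treatment the differences between classes were not tested. Hspb1 had a log2 ratio of CDS over saline of 0.89 in beta-like, 0.53 in endothelial-like and -0.48 in alpha-like cells, and the alpha-like value was -0.04 without the richest cell of each library. Dnaja1 had 0.62 in beta-like, 0.39 in alpha-like and -0.47 in macrophage-like cells. Cct3 had 0.41 in beta-like and -0.47 in macrophage-like cells.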

How the results depend on the processing

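In beta-like cells 16 members were higher and 0 lower; plain scaling gave 6 and 5, leaving hormone, acinar and mitochondrial genes out of the total gave 9 and 3, and factors shared by all classes, chosen after seeing the data, gave 9 and 2. The heat-inducible median of 0.36 became -0.039, 0.12 and 0.19 under these 3 settings, and that of the other members (0.31) became -0.094, 0.070 and 0.13. Plain scaling turned Hspb8 to -0.053, Dnajb1 to -0.025, Cct4 to -0.058 and Cct8 to -0.067. The length adjustment, also chosen after seeing the data, left 10 higher in beta-like cells, medians of 0.14 for heat-inducible and 0.16 for the other members, and Dnajb1 at -0.086. Stricter ratio limits (1.5 and its inverse) left 9 higher. Over the 4 other classes together 21 calls were higher and 12 lower, against 12 higher under plain scaling, 12 without hormone genes, 10 higher and 2 lower with the stricter limits, and 11 higher and 26 lower after the length adjustment; the median of the other members there (0.06) became -0.075 under plain scaling, -0.057 without hormone genes, -0.0010 with shared factors and -0.10 after the length adjustment. The other settings (median-of-ratios factors, mean over cells, UMI minimum, cell filter, doublets kept, Leiden clusters, stricter gate, richest cell left out) kept the 16 members called higher in beta-like cells above 0.

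Counts of members higher or lower than in beta-like cells moved as follows. For alpha-like cells (1 and 9), 2 were higher with median-of-ratios factors and with the stricter cell filter, 0 with DESeq2 and with Leiden clusters, and 16 were lower with only the classes compared. For delta-like cells (3 and 3), 6 were higher with median-of-ratios factors, 6 and 6 with only the classes compared, 5 higher with DESeq2, and 1 lower with Leiden clusters. For endothelial-like and macrophage-like cells together (17 and 11), 27 were higher with the stricter gate and 6 lower with Leiden clusters. With a library left out no test is possible, since 1 library leaves no residual degrees of freedom; the values of each library stand in the report. Thinned to 3000 UMIs, the variance over mean of the heat-inducible sum was 1.39 and 1.58 in the saline and CDS libraries, and 1.17% of CDS beta-like cells held an Hspa1a UMI. No paired analysis was possible because, between treatments, each group has 1 library; the class comparison has library as a term in its fit. Causes of these shifts were not tested.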
